A study of Homo sapiens with 12 samples.

Results

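The E2F transcription factors and the pocket proteins that bind them form the switch between the cyclin-dependent kinases and the genes of S phase. The 10 genes described here, E2F1, E2F2, E2F3, E2F4, E2F5, E2F7, E2F8, RB1, RBL1 and RBL2, were taken by symbol from a table of read counts that held 62069 genes. All 10 were found in the table, and all 10 were among the 15284 genes that passed the filter on low counts and were tested.

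The libraries came from IMR90 ER:RAS cells, a line of human fetal lung fibroblasts that carries RAS fused to the hormone-binding domain of the oestrogen receptor. Addition of 4-hydroxytamoxifen (4OHT) switches the fusion on, and the cells then enter oncogene-induced senescence, a lasting arrest of the cell cycle. The 4 groups of 3 libraries each were sequenced at day 5 from cells at passage 13: non-induced cells without 4OHT, induced cells given 100 nM 4OHT, and cells given the same 4OHT that also expressed shXPO7_3 or shXPO7_5, short hairpins against the nuclear transport receptor XPO7. The replicates of a group are marked T, A and B, or T, A and C in the non-induced group. Every library, the non-induced ones included, carried the ER:RAS fusion, and all came from this 1 line. The paper describes the cells as transduced and names its comparison groups without a hairpin as vector. The labels of the non-induced and induced libraries mention no vector. The labels do not say whether the replicates of a group were separate cultures. The p-values judge differences between groups against the spread among these libraries, and part of that spread may be technical.

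Pocket proteins hold E2F factors on promoters and recruit repressors to them, and phosphorylation of the pocket proteins by cyclin-CDK complexes releases this hold. E2F1, E2F2 and E2F3 are the activators, which are bound mainly by RB1. E2F4 and E2F5 work mainly as repressors with RBL1 (p107) and RBL2 (p130), and E2F7 and E2F8 are atypical factors that repress without a pocket protein or a DP partner. In senescent fibroblasts the RB pathway is one of the arms that maintain the arrest.

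Depth ran from 28534141 to 60397769 counts per library. XPO7, the gene targeted by the hairpins, had 127 to 144 CPM (counts scaled by library size with TMM factors) in the induced libraries, 26.4 to 28.7 with shXPO7_3 and 50.8 to 54.0 with shXPO7_5. All 9 fibroblast markers were present in every group, with summed levels of 37761 CPM or more. PTPRC, which defines leukocytes, CDH1, which defines epithelial cells, and PECAM1 and CDH5, which define endothelial cells, were under 1 CPM in all 12 libraries. The sum of the 4 epithelial markers was 40.0 to 49.3 CPM in non-induced and 7.81 to 12.7 CPM in the induced groups. With VWF and KDR, the 4 endothelial markers summed to 1.90 to 3.15 CPM in non-induced and 3.35 to 5.27 CPM in the induced groups. The part of these markers in the results was not tested. The shXPO7_5 libraries did not lie together, and library T of shXPO7_3 lay apart from A and B. Non-induced library T also lay apart from A and C, at a chi-square per gene of 24.6 and 50.5, beside 10.4 between A and C. Leaving out library A of shXPO7_5 moved the genes called against induced cells from 90 to 3634, so log2 fold changes of the members for that hairpin are given below with and without it. Relative to the mean of the induced libraries, the change per gene followed the GC content of the transcripts (Spearman, across genes) at 0.60 in T and 0.77 in B of shXPO7_5 but at 0.11 in A. The same value was 0.57 in T, -0.33 in A and -0.25 in B of shXPO7_3, and ran from -0.05 to 0.30 in non-induced libraries. In bulk RNA, fewer cells of a kind and less RNA per cell cannot be told apart.

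The 250 bases before the start of transcription are shown for the called members that moved by at least 1 on the log2 scale between non-induced and induced cells and that matched the table of RefSeq promoters used here (GRCh38.p14). They are E2F1, E2F2, E2F7 and RBL1. Of the 10 members 8 matched that table, and the windows of E2F5 and E2F8 were not analysed here. The first is chr20:33686386-33686635, the second chr1:23531234-23531483, the third chr12:77065570-77065819 and the fourth chr20:37095998-37096247, all on the minus strand. Capitals mark matches to the E2F motif TTTNNCGC on either strand.
E2F1: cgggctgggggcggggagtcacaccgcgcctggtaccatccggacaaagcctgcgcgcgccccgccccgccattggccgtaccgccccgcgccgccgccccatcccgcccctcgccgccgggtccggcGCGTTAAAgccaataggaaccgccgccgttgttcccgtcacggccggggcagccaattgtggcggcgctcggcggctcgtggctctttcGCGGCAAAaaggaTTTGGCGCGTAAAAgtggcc
E2F2: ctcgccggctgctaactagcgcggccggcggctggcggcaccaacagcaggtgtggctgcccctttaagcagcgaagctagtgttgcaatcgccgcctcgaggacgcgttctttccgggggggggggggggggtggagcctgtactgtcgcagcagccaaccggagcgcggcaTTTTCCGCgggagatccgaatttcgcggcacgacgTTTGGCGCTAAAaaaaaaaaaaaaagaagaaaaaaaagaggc
E2F7: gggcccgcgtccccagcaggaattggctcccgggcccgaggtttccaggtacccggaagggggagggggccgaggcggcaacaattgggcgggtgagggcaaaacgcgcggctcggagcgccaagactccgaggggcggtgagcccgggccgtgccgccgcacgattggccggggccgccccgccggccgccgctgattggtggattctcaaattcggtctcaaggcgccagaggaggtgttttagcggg
RBL1: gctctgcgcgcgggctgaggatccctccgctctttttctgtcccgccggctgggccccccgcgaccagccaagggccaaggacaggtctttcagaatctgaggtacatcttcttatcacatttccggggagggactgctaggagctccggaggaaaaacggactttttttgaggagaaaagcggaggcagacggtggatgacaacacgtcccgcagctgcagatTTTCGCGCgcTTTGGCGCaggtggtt
The E2F1 window held 4 matches, of which the match at positions -20 to -13 from the start overlapped the one at -14 to -7. The E2F2 window held 3 matches, also with an overlap, at -42 to -35 and -38 to -31. RBL1 held 2 matches at -26 to -19 and -16 to -9, and no match lay in the E2F7 window. Of 35116 RefSeq windows of the same length, 5.92% held the motif. The CCAAT box of NF-Y was found 3 times before E2F1 and 4 times before E2F7, searched on both strands, and 32.0% of all windows held it. The CHR element TTTGAA, in 13.3% of windows, was in none of the 4. A window of E2F3, which has 2 entries, held 1 E2F motif, 1 CHR element and 4 CCAAT boxes. The windows of E2F4 held none of these motifs, RBL2 held 1 CCAAT box in 1 of its 2 windows, and the entry of RB1 starts inside the gene. These matches describe letters in a window and were not tested for binding.

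Between non-induced and induced cells, 6 of the 10 members passed the test at an adjusted p under 0.05 (edgeR's quasi-likelihood test, Benjamini-Hochberg over all genes tested), beside 50.9% of all genes tested. E2F3 and E2F7 rose, beside 24.8% of all genes, and E2F1, E2F2, E2F8 and RBL1 fell, beside 26.1% of all genes. The libraries of the compared groups did not overlap for 8 members, beside 63.2% of all genes. The median log2 fold change was -0.23 over the members and -0.01 over all genes. DESeq2 also called 6 members, beside 49.2% of all genes. When GC content and transcript length were corrected for in each library, all 10 were called, beside 63.9% of all genes.

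**Figure D1:**
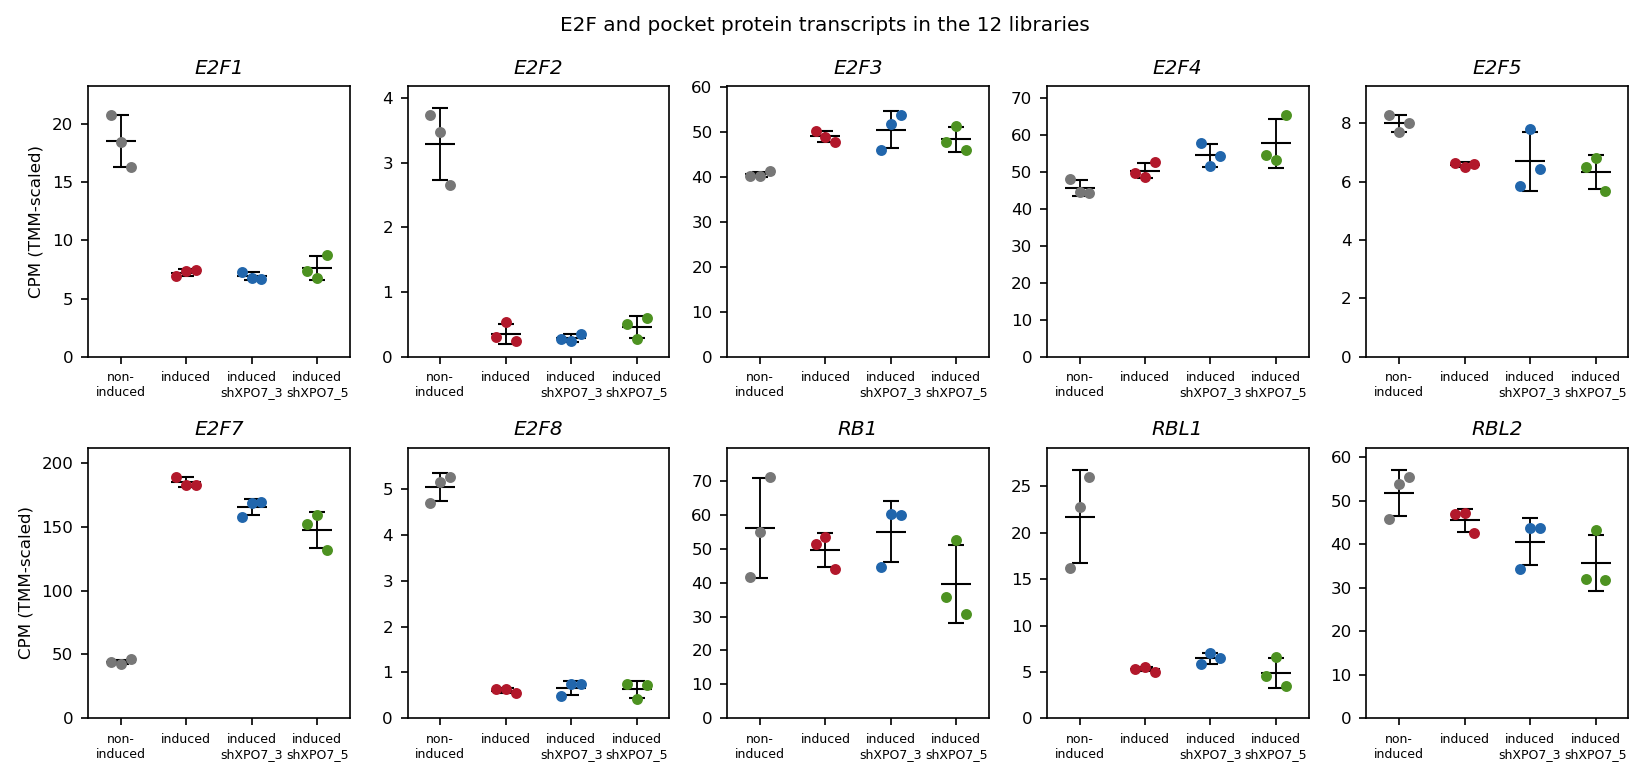
TMM-scaled CPM (linear axes from 0) of the 10 members in the 4 groups. Points are the libraries, from left T, A and C or B, and bars give the mean and SD of 3 libraries. E2F7 sat at 42.7 to 46.1 CPM in non-induced and 182 to 189 CPM in induced cells, while E2F2 and E2F8 sat under 1 CPM in every induced group.

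Among the activators, E2F1, which drives the genes of DNA replication and can also promote apoptosis, was measured at 20.7, 18.4 and 16.3 CPM in non-induced libraries T, A and C and at 6.89, 7.37 and 7.40 CPM in induced libraries T, A and B. Every induced library lay below every non-induced one. E2F1 fell by 1.35 on the log2 scale (SE 0.114, edgeR adjusted p = 8.78e-07), to 39.1% of the non-induced level. E2F2, a close relative of E2F1, had 3.74, 3.47 and 2.66 CPM in non-induced cells and 0.301, 0.532 and 0.242 CPM in induced cells. The induced values rested on 11, 15 and 12 reads. The groups did not overlap, and E2F2 fell by 3.26 on the log2 scale (SE 0.293, adjusted p = 1.64e-06), with a 95% confidence interval of -3.90 to -2.62.

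E2F3 moved the other way. This activator is made as a long and a short isoform from separate promoters, which counts per gene do not separate. It stood at 40.2, 40.3 and 41.2 CPM in non-induced and 50.3, 48.9 and 47.9 CPM in induced cells. The libraries of each group lay close together and did not overlap with the other group, and the rise was 0.27 on the log2 scale (SE 0.0746, adjusted p = 0.00875), or 1.21-fold. Upper-quartile scaling, which moved the median of all genes from -0.01 to -0.10, left E2F3 at 0.18 and ended the call (adjusted p = 0.0596).

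Neither repressor E2F passed the test. E2F4, the main partner of RBL2 in resting cells, was at 48.1, 44.6 and 44.3 CPM before and 49.7, 48.7 and 52.6 CPM after induction. The induced libraries were all above the non-induced ones, by a narrow margin, and the log2 fold change of 0.14 did not pass the test (95% confidence interval -0.05 to 0.33, adjusted p = 0.201). E2F5, its closest relative, had 8.28, 7.70 and 7.99 CPM in non-induced and 6.64, 6.49 and 6.62 CPM in induced cells, again without overlap, and a log2 fold change of -0.28 (interval -0.52 to -0.04, adjusted p = 0.0519). E2F5 was called in 5 of 15 alternative settings, and E2F4 in 2 of 15. C8orf59, on the opposite strand, shares 969 bases or 16.3% of the exon sequence of E2F5 and had 10067 counts over the 12 libraries. No source used here gives the strand setting of the counting, so reads from these shared exons cannot be told apart.

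The atypical factors, which bind the same sites as homodimers or with each other, moved in opposite directions. E2F7 was measured at 44.1, 42.7 and 46.1 CPM in non-induced cells and at 189, 182 and 183 CPM in induced cells. It rose 4.18-fold, by 2.06 on the log2 scale (SE 0.0770, adjusted p = 6.01e-10), and its change lay at the 97.3 percentile of all genes tested. E2F8 had 4.70, 5.15 and 5.27 CPM in non-induced and 0.629, 0.638 and 0.545 CPM in induced cells. No library of one group reached the other. E2F8 fell by 3.07 on the log2 scale (SE 0.197, adjusted p = 7.72e-08), to 11.9% of the non-induced level, and the fall of E2F8 and the rise of E2F7 were called in all of the 14 and 15 alternative settings in which each was tested.

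Of the pocket proteins, RBL1 (p107), itself a gene of the growing cell, was measured at 16.3, 22.8 and 26.1 CPM in non-induced cells and 5.33, 5.56 and 5.04 CPM in induced cells. The non-induced libraries were spread widely, yet the lowest was well above the highest induced one. RBL1 fell by 2.04 on the log2 scale (SE 0.212, adjusted p = 6.11e-06), to 24.4% of the non-induced level. RB1, the retinoblastoma protein, was at 41.8, 55.04 and 71.3 CPM in non-induced and 51.4, 53.4 and 44.1 CPM in induced cells. The induced values lay inside the range of the non-induced ones, and the log2 fold change of -0.18 had an interval of -0.65 to 0.29 (adjusted p = 0.520). Its direction rested on non-induced library C, without which the value was 0.04. RBL2 (p130), the pocket protein of quiescent cells, was at 45.7, 53.9 and 55.5 CPM in non-induced and 46.8, 47.0 and 42.5 CPM in induced cells. The groups overlapped, and the log2 fold change was -0.19 (interval -0.48 to 0.10, adjusted p = 0.266).

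The correction for GC content and length brought E2F4 (0.30, adjusted p = 0.000105), E2F5 (-0.37, adjusted p = 0.0375), RB1 (-0.26, adjusted p = 0.00253) and RBL2 (-0.20, adjusted p = 0.0224) past the threshold, each in the direction it had without it. The 6 members called without the correction kept their direction with it. RB1, RBL2 and E2F5 have transcripts with 37.3%, 43.2% and 38.3% GC, and E2F4 has 59.3%. With 3 libraries a group, the exact two-sided permutation test of a single gene cannot go below 0.1, the value it gave for each of the 8 members without overlap.

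**Figure D2:**
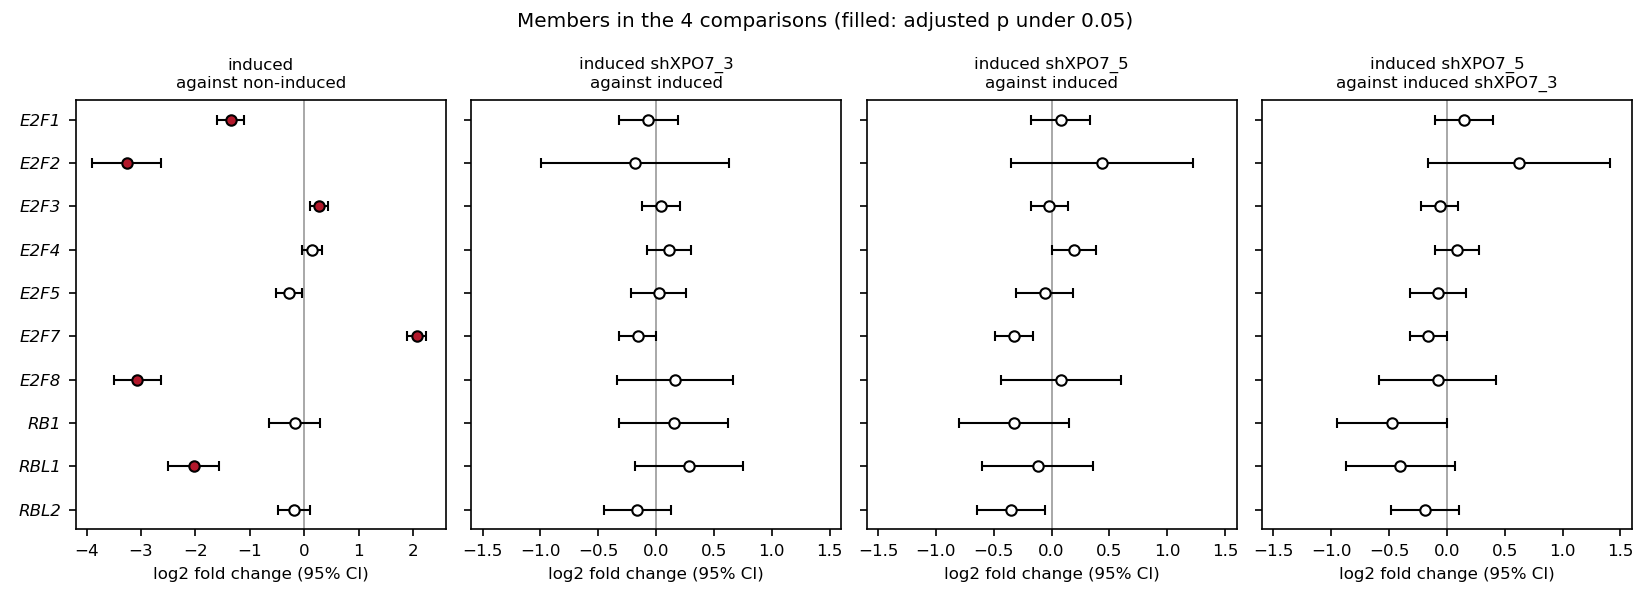
Log2 fold change of each member with its 95% confidence interval in the 4 comparisons (edgeR, 3 libraries a group, the first panel on a wider axis). Filled points passed an adjusted p of 0.05: 6 members passed between induced and non-induced cells and none between the hairpin groups and induced cells or between the hairpins.

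To compare levels between genes, CPM were divided by the length of the union of exons in kilobases (CPM per kb). In non-induced cells E2F4 was the most abundant member at 12.8 ± 0.59 CPM per kb (SD, n = 3). RB1, E2F3, E2F1, RBL2 and E2F7 followed between 8.69 and 7.03 CPM per kb, and each overlapped its neighbour in this order. RBL1 (3.65), E2F5 (1.35), E2F8 (1.22) and E2F2 (0.603 CPM per kb) came last, each without overlap with its neighbours. In induced cells E2F7 stood first at 29.4 CPM per kb, ahead of E2F4 at 14.1 and E2F3 at 9.49, and no neighbours overlapped. E2F1 came sixth at 2.88 CPM per kb, and RBL1 dropped behind E2F5, to 0.892 CPM per kb. E2F8 and E2F2 remained last at 0.146 and 0.0656 CPM per kb. Taking the longest transcript as length kept 32 of the 40 ranks over the 4 groups and put RB1 ahead of E2F3 in induced cells, and TPM kept all 40.

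As shares of the summed CPM per kb of the 7 E2F genes, the activators held 41.5% ± 1.1 (SD, n = 3) in non-induced and 21.8% ± 0.40 in induced cells. The repressors held 36.9% ± 0.37 and 26.6% ± 0.89. The atypical factors held 21.6% ± 1.3 before and 51.7% ± 0.66 after induction, of which nearly all was E2F7. In these shares the 3 induced libraries lay apart from the 3 non-induced ones in every class. The shares divide by a total that includes the rise of E2F7. The summed level of the activators was 15.8 ± 0.89 CPM per kb in non-induced and 12.4 ± 0.15 in induced cells. That of the repressors was 14.1 ± 0.63 and 15.2 ± 0.56, and that of the atypical factors 8.25 ± 0.31 and 29.5 ± 0.62. Among the pocket proteins RBL1 made up 18.7% ± 0.93 of the summed level in non-induced and 6.04% ± 0.22 in induced cells. The level of RBL2 was 1.98 ± 0.28 times that of RBL1 in non-induced and 6.96 ± 0.17 times in induced cells. E2F4 over E2F1 went from 1.74 ± 0.15 to 4.87 ± 0.23. The sum of the pocket proteins was 15.4 to 23.0 CPM per kb in non-induced and 13.5 to 15.6 in induced cells, ranges that overlapped narrowly.

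**Figure D3:**
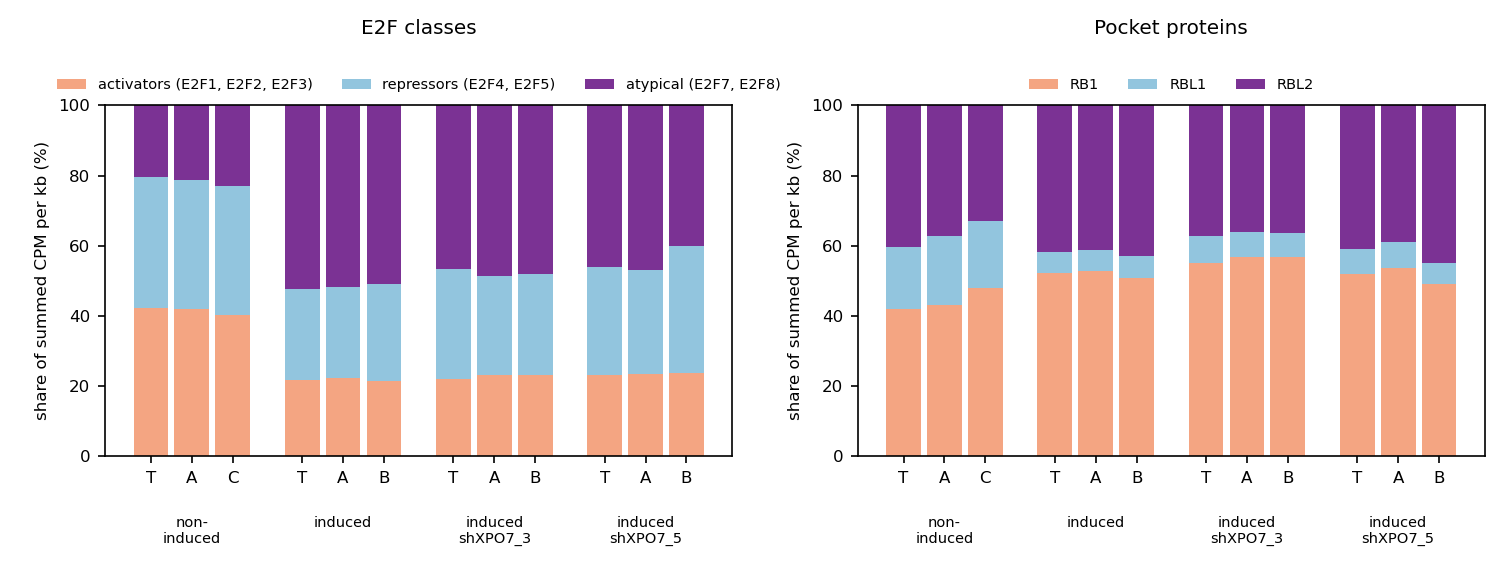
Share (%) of each E2F class in the summed CPM per kb of the 7 E2F genes (left) and of each pocket protein in their sum (right), 1 bar per library, with replicates T, A and C or B under each group. The atypical class took 20.5% to 23.1% in non-induced and 51.0% to 52.3% in induced libraries.

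The other genes of the pathway were read as lists. Between induced and non-induced cells 50.9% of all genes tested were called, 24.8% higher and 26.1% lower. All 3 partner genes passed the test. TFDP1 and TFDP2, which encode the DP subunits that most E2F proteins need to bind DNA, had log2 fold changes of -0.47 and -0.73, and E2F6, a repressor that lacks the pocket protein site, rose by 0.56. Of 8 cyclin D and E and CDK genes, 4 rose and 3 fell. CCND2, a D-type cyclin, rose by 1.15 and CDK2, the kinase of cyclin E, by 0.56, whereas the cyclin E gene CCNE2 fell by 2.46 and CDK6, a partner of D-type cyclins, fell by 0.81. Of 7 CDK inhibitor genes 3 rose and 3 fell. CDKN2B (p15) rose by 4.48, from 14.1 to 315 CPM, and CDKN1A (p21) by 1.19, while CDKN2C (p18) fell by 3.23 and CDKN1C (p57) fell by 2.46. The median of that list was -0.19, with 3 of its 7 genes above 0.

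Of 8 genes of the MuvB complex and its partners, 5 fell and none rose, beside 26.1% and 24.8% of all genes, with a median of -0.59. MYBL2, which joins MuvB in S phase, fell by 3.20, and FOXM1, which joins it in G2, fell by 2.78. The count was 4 to 8 over the alternative settings and was 4 without non-induced library C or induced library T and 8 with the GC correction. Of 10 corepressor genes 1 rose and 3 fell, beside 24.8% and 26.1% of all genes. They were KDM5A, a histone demethylase that binds RB1, which rose by 0.30, the histone methyltransferase gene SUV39H1, which fell by 0.80, RBBP7, a histone chaperone gene, which fell by 0.34, and HDAC1, a histone deacetylase gene, which fell by 0.26. Of 28 textbook targets of E2F at G1/S, 27 were tested. Among these 24 fell and none rose, beside 26.1% and 24.8% of all genes. The median was -1.64 beside -0.01 for all genes. TK1, thymidine kinase, fell by 3.31 from 47.8 to 4.81 CPM, and CCNA2, cyclin A, fell by 2.67. The remaining targets tested, CHEK1 (-0.13), SLBP (-0.05) and APAF1 (0.08), were not called, and are named after their values were seen. HDAC1 was likewise named after its values were seen. The other genes named in the 6 lists passed the threshold in every alternative setting in which they were tested.

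**Figure D4:**
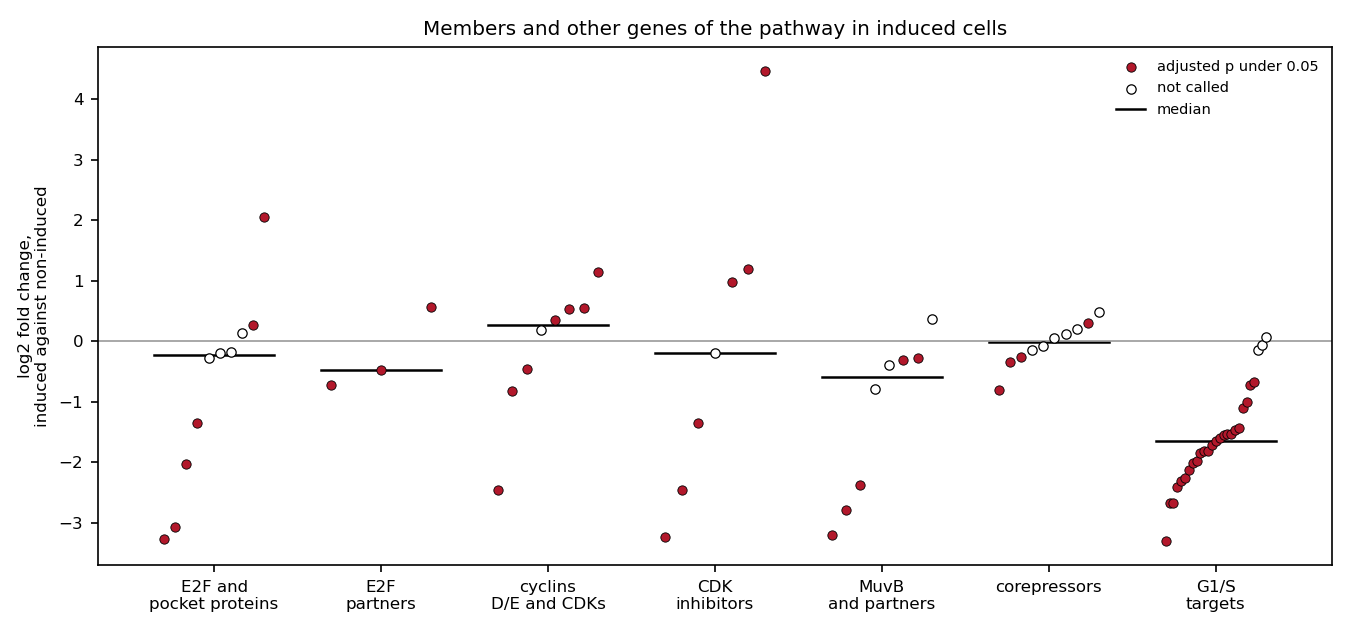
Log2 fold change between induced and non-induced cells for the 10 members and for the genes of the 6 pathway lists, sorted within each column. Filled points passed an adjusted p of 0.05 and the line is the median. The G1/S targets lie almost wholly below 0, with a median of -1.64, while CDK inhibitors lie on both sides.

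Knockdown of XPO7 in induced cells was compared with the induced libraries, which both hairpin comparisons share. With shXPO7_3, edgeR called 0 of the 10 members, beside 0.124% of all genes, and DESeq2 also called 0, beside 88 of 15284 genes. At an unadjusted p under 0.05, 1 member passed, beside 6.41% of all genes. The libraries did not overlap for 2 members, E2F7 and RBL1, beside 14.6% of all genes. E2F7 stood at 158, 169 and 169 CPM in shXPO7_3 libraries T, A and B, all below the 182 to 189 CPM of induced cells. Its log2 fold change was -0.16 (95% confidence interval -0.32 to -0.00050, adjusted p = 0.777). RBL1 stood at 5.87, 7.00 and 6.51 CPM, all above the induced libraries, with a log2 fold change of 0.28 (interval -0.18 to 0.75, adjusted p = 0.999). The median over the members was 0.03.

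With shXPO7_5, edgeR again called 0 of the 10 members, beside 0.589% of all genes, and DESeq2 called 1, E2F7, beside 2.79% of all genes. At an unadjusted p under 0.05, 3 members passed, E2F4, E2F7 and RBL2, beside 21.6% of all genes. The libraries did not overlap for E2F4 and E2F7, beside 26.8% of all genes. E2F7 was measured at 152, 159 and 132 CPM, below all libraries of induced cells, while library A at 159 lay above the lowest shXPO7_3 library. The log2 fold change of E2F7 was -0.32 (interval -0.48 to -0.16), with an unadjusted p of 0.000882 and an adjusted p of 0.0734 over the 15284 genes. The value was called in 3 of 15 alternative settings, at -0.31 by DESeq2 (adjusted p = 0.0218), at -0.38 without library A of shXPO7_5 (adjusted p = 0.0247), and at -0.16 with the replicate letter and the GC correction in 1 model (adjusted p = 0.0364, beside 6.30% of all genes called in that model). Adjusted p over the alternatives ran from 0.0218 to 0.278, and the direction was the same in all 15.

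E2F4 was at 54.5, 53.2 and 65.4 CPM with shXPO7_5, all above the induced libraries, and had a log2 fold change of 0.20 (interval 0.01 to 0.39, adjusted p = 0.225). RBL2 was at 32.0, 43.1 and 31.7 CPM, where library A reached the induced range of 42.5 to 47.0, and had a log2 fold change of -0.35 (interval -0.64 to -0.06, adjusted p = 0.200). RB1 was at 35.7, 52.5 and 30.7 CPM and had a log2 fold change of -0.33 (interval -0.80 to 0.15, adjusted p = 0.333). Libraries T and B were below the induced range for RB1 and RBL2 while A lay in it. RBL1 showed the same split, at 4.51, 6.64 and 3.49 CPM, with T and B below and A above the induced libraries. Without library A, 2 members were called, E2F7 and RBL2, beside 23.0% of all genes. RBL2 then stood at -0.51 (adjusted p = 0.0320), E2F4 came to 0.25 (adjusted p = 0.0578), and RB1 came to -0.58 (adjusted p = 0.0547) and RBL1 to -0.41 (adjusted p = 0.133).

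These splits were read beside GC content, whose part in them was not tested. The pocket protein transcripts have 37.3% to 43.2% GC and were lowest in libraries T and B, whose counts rose with GC, and E2F4, with 59.3% GC, was highest in B. After correction for GC content and length, log2 fold changes became 0.01 for RB1, -0.20 for RBL2, 0.14 for RBL1 and 0.01 for E2F4, and E2F7 became -0.16 (adjusted p = 0.119). E2F5 went from -0.06 to 0.27. With shXPO7_3 the corrected values were -0.13 for E2F7 and 0.31 for RBL1, and neither passed the test.

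None of the other members passed the test under either hairpin, and the intervals show what sizes of change remain possible. E2F1 ran from 6.64 to 7.30 CPM with shXPO7_3 and from 6.76 to 8.74 CPM with shXPO7_5, beside 6.89 to 7.40 CPM in induced cells. Its log2 fold changes were -0.07 (interval -0.32 to 0.18) and 0.08 (interval -0.17 to 0.33). E2F2 ran from 0.242 to 0.354 CPM and from 0.272 to 0.601 CPM, on 8 to 22 reads a library. Its intervals, -0.996 to 0.627 and -0.35 to 1.22, were the widest of the members. E2F3 had log2 fold changes of 0.04 (interval -0.12 to 0.21) and -0.02 (interval -0.18 to 0.14). E2F5 had 0.02 (interval -0.22 to 0.26) and -0.06 (interval -0.30 to 0.18). E2F8, on 14 to 44 reads a library, had 0.16 (interval -0.34 to 0.66) and 0.08 (interval -0.44 to 0.60). Without library A of shXPO7_5 the values for that hairpin were 0.16 for E2F1, 0.71 for E2F2, -0.06 for E2F3, -0.11 for E2F5 and 0.31 for E2F8, none of them called. E2F4 and RBL2 with shXPO7_3 had 0.11 (interval -0.08 to 0.30) and -0.16 (interval -0.45 to 0.13), and RB1 had 0.15 (interval -0.32 to 0.62). In shXPO7_3 libraries T, A and B, RB1 was at 44.7, 60.4 and 60.1 CPM and RBL2 at 34.4, 43.6 and 43.7 CPM. E2F4 was at 57.7, 51.5 and 54.3 CPM in the same libraries.

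Compared with each other, the hairpins gave 0 members called by edgeR, beside 0.0131% of all genes, and 0 by DESeq2, beside 27 of 15284 genes. At an unadjusted p under 0.05, 2 members passed, E2F7 and RB1, beside 11.9% of all genes, and no member was without overlap, beside 9.71% of all genes. E2F7 was at -0.16 on the log2 scale, shXPO7_5 relative to shXPO7_3 (interval -0.32 to -0.0025, adjusted p = 0.388) and RB1 at -0.48 (interval -0.95 to -0.0033, adjusted p = 0.388). After correction for GC content and length E2F7 stood at -0.03 and RB1 at -0.16. Without library A of shXPO7_5 the hairpins differed by -0.22 for E2F7 (adjusted p = 0.0739), -0.73 for RB1 (adjusted p = 0.0705), -0.69 for RBL1 (adjusted p = 0.0705) and -0.35 for RBL2 (adjusted p = 0.0748). The other members then stood at 0.23 for E2F1, 0.89 for E2F2, -0.11 for E2F3, 0.14 for E2F4, -0.13 for E2F5 and 0.14 for E2F8, and no member was called. The atypical share of the E2F level was 47.7% ± 1.1 with shXPO7_3 and 44.3% ± 3.8 with shXPO7_5, and each library of both lay between the induced and the non-induced ranges. The activator share was 22.7% ± 0.73 and 23.4% ± 0.25. These shares were taken without the correction for GC content and length. With that correction, E2F7 stood at -0.16 and E2F4 at 0.01 for shXPO7_5 against induced.

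In the pathway lists, edgeR called CCND2 alone with shXPO7_3, from 26.6 to 18.7 CPM, a log2 fold change of -0.51 (adjusted p = 0.0409). This call was lost in 9 of 15 alternative settings, including every setting that left out a library of either group. CCND2 was at -0.32 with shXPO7_5 and was not called (adjusted p = 0.0877). With shXPO7_5, edgeR called 4 genes, all higher. MYBL2 rose by 0.77 (adjusted p = 0.0339), FOXM1 by 0.59 (adjusted p = 0.0265), TK1 by 0.69 (adjusted p = 0.0357) and RRM2, a subunit of ribonucleotide reductase, by 0.39 (adjusted p = 0.0451). MYBL2 was at 6.33 CPM with shXPO7_5, 3.69 in induced and 34.04 CPM in non-induced cells. These genes were called in 7 to 9 of 15 alternative settings. They were lost when any induced library, or library T or B of shXPO7_5, was left out, with the direction unchanged, and were kept without library A. The same 4 genes were also above 0 with shXPO7_3, though not called. RRM2 was at 0.41 (edgeR adjusted p = 0.0751), FOXM1 at 0.43 (0.167), TK1 at 0.28 (0.770) and MYBL2 at 0.26 (0.916). The G1/S list as a whole had 17 of 27 genes above 0 and a median of 0.15 with shXPO7_5, and 23 of 27 and 0.09 with shXPO7_3, of which none was called by edgeR. The medians of all genes tested were 0.0058 and -0.0031. Both counts use the same induced libraries, so they are not independent. At an unadjusted p under 0.05, 9 of 27 passed with shXPO7_5, beside 21.6% of all genes, and 5 of 27 with shXPO7_3, beside 6.41%. Without library A of shXPO7_5, 7 of 27 G1/S targets and 5 of 8 MuvB genes were called, beside 23.0% of all genes in that fit. These counts take both directions together. With all libraries kept, 3 of 8 MuvB genes were above 0 with shXPO7_5, with a median of -0.02. With shXPO7_3, 6 of 8 MuvB genes were above 0, with a median of 0.10. Among 7 CDK inhibitor genes edgeR called 0 with either hairpin. DESeq2 called 0 with shXPO7_3, beside 88 of 15284 genes, and 1 with shXPO7_5, beside 2.79% of all genes. With shXPO7_3 and shXPO7_5, 1 and 3 passed an unadjusted p under 0.05, beside 6.41% and 21.6% of all genes. Without library A of shXPO7_5, 3 were called, in either direction, beside 23.0% of all genes. With all libraries kept, 5 of the 7 were above 0 with shXPO7_5 (median 0.11) and 3 of the 7 with shXPO7_3 (median -0.08). Of the partners 0 were called by either tool and 0 passed unadjusted. Between the hairpins edgeR called no list gene, and the difference between them for MYBL2 and TK1 was 0.51 and 0.41 (adjusted p = 0.388 for both).

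For members whose groups overlapped or lay close, the Pearson correlation of log2 CPM over the 12 libraries is given as a description. RB1 and RBL2, which edgeR called in none of the 4 comparisons, had 0.82. E2F4 and RBL2, with 59.3% and 43.2% GC, had -0.91. Likeness to other genes was read in the same way and for the called members follows the split between non-induced and induced libraries. Of the 10561 genes expressed at a mean log2 CPM of 2 or more, CENPF (0.995) and ARHGAP11A (0.994), both genes of dividing cells, were most like RBL1, and SAT1 (0.997), a polyamine enzyme gene, was among the 2 most like E2F7. CUEDC1 (0.998) and SLC44A2 (0.997) were most like E2F1. With Spearman's correlation, or over the 9 libraries of the induced groups alone, 1 of the 20 genes chosen in this way was kept.

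In the GRCh38 annotation, matched by Ensembl identifier because the counts were made on an older build, all 10 members are protein-coding genes. E2F1 lies at chr20:33675683-33686404, E2F2 at chr1:23506430-23531220, E2F3 at chr6:20401906-20493715 and E2F4 at chr16:67192169-67198918. E2F5 lies at chr8:85177225-85217158, E2F7 at chr12:77021247-77065580 and E2F8 at chr11:19224063-19241620. RB1 lies at chr13:48303726-48599436, RBL1 at chr20:36996349-37095995 and RBL2 at chr16:53433977-53491649. Counting could be shared with other genes for a few of them. AKTIP, on the opposite strand, shares 610 bases or 8.3% of the exons of RBL2 and had 1700 counts in total. For RBL1 an antisense gene with 6 counts shares 3.5% of the exons. The pseudogenes E2F3P2 and E2F3P1 had 49 counts and 1 count over the 12 libraries, beside at least 1300 per library for E2F3, and E2F4P1 had 0.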

How the data were processed

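RNA was extracted from IMR90 ER:RAS cells and sequenced with a stranded mRNA kit. The authors deposited read counts per gene for 12 libraries in 1 table, without normalization. Base calling by CASAVA 1.8.4, alignment by TopHat2 2.0.11 and counting by featureCounts 1.18.0 are listed in the submitters' notes, on build hg19, also given as GRCh37. Which annotation and strand setting were used, and how reads matching several places were treated, is not stated in those notes or the methods. The 92 entries for ERCC spike-in controls were 0 and were left out. Symbols, exon lengths, GC content and overlaps came from GENCODE annotation of GRCh38 and a table of gene names, matched by Ensembl identifier, and 97.3% of the genes tested had a length and GC content. Promoter windows came from RefSeq.

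Tests used edgeR 4.0.16 in R 4.3.3 (filterByExpr, TMM, quasi-likelihood test on all 12 libraries in 4 groups, no covariates). The Benjamini-Hochberg adjustment covered 15284 genes, and the threshold was 0.05. CPM are TMM-scaled, and log2 CPM had a prior count of 2. Confidence intervals cover 95%. Alternatives were DESeq2 1.42.0, RLE and upper-quartile factors, other filters, the replicate letter as a block, an offset for GC content and length (natural splines with 5 degrees of freedom), both together, the compared groups alone, and leaving out each library in turn. Replicate pairs differed by a chi-square of 4.60 to 61.8 per gene, so none was counted as a repeat. All members are named in every comparison, as are all partners and, of each other list, the 2 called genes with the largest log2 fold change each way. The members and lists were chosen with earlier results of these data known. The alternatives for the pathway genes were added after seeing the data.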

Additional observations from a re-analysis of the deposited data

How the results depend on the processing

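Over the members, 134 of 148 values between induced and non-induced cells kept their direction and their side of the threshold under the alternatives, 145 of 148 for shXPO7_3 against induced, 127 of 148 for shXPO7_5 against induced and 137 of 148 between the hairpins. E2F2 and E2F8 were not tested under the filter of at least 1 CPM in 6 libraries, because their levels were too low. They rested on 8 to 44 reads per induced library. The causes of the changes below were not tested unless fewer genes or libraries entered the fit.

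With the replicate letter as a block, no member changed its call in any comparison. The letters were not treated as pairing the libraries, and the labels do not say whether they do. Same-letter correlations of deviations ran from -0.02 to 0.06 for shXPO7_3 and from -0.07 to 0.19 for shXPO7_5 against induced, and from -0.23 to 0.37 between the hairpins. They were 0.20 and 0.21 for the 2 letters that induced and non-induced cells share. Different-letter correlations ran from -0.24 to 0.25, from -0.25 to 0.12, from -0.54 to 0.42 and from -0.29 to 0.21 in the same order. So few libraries cannot decide whether the letters mark pairs. The block put RB1 at 0.11 between induced and non-induced cells and called 149 genes for shXPO7_5 against induced. The offset for GC content and length, alone or with the block, called 10 members between induced and non-induced cells.

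For shXPO7_3 against induced, the 19 genes called became 8 with upper-quartile factors, 30 without the filter, 88 with DESeq2, 342 with the GC offset, 384 with the GC offset and block, 2 with the compared groups alone, and 1 when any library was left out. For shXPO7_5 against induced, 90 became 217 without the filter, 426 with DESeq2, 470 with the GC offset, 963 with the GC offset and block, 10 with the compared groups alone, and 2 to 3634 when 1 library was left out, the highest without shXPO7_5 library A. Members called there were 1 with DESeq2, 1 with the GC offset and block, and 0 to 2 when 1 library was left out. Between the hairpins, 2 became 20 without the filter, 27 with DESeq2, 41 with the GC offset, 55 with the GC offset and block, 0 with the compared groups alone, and 1 to 4 with 1 library left out. The share of called genes that were higher with shXPO7_5 went from 81.1% to 70.4% with the GC offset and 64.4% with offset and block, and with shXPO7_3 from 73.7% to 62.6% with the GC offset.

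Log2 fold changes of uncalled members also changed sign. For shXPO7_5 against induced, E2F3 was 0.031 with upper-quartile factors. With the GC offset E2F1 was -0.14, E2F3 0.058, E2F5 0.27, RB1 0.011 and RBL1 0.14, and with offset and block E2F1 was -0.15, E2F3 0.058, E2F5 0.27, RB1 0.0091 and RBL1 0.12. Between the hairpins, under the GC offset E2F1 was -0.057, E2F4 -0.085 and E2F5 0.24 without the block and -0.057, -0.086 and 0.24 with it. With 1 library left out, RB1 ran from -0.35 to 0.036 between induced and non-induced cells. For shXPO7_3, E2F2 ran from -0.44 to 0.15, E2F5 from -0.097 to 0.099 and E2F3 from -0.0062 to 0.10. For shXPO7_5, E2F8 ran from -0.052 to 0.31, E2F1 from -0.032 to 0.16, E2F3 from -0.064 to 0.018, E2F5 from -0.11 to 0.017 and RBL1 from -0.41 to 0.082. Between the hairpins, E2F5 ran from -0.16 to 0.039, E2F8 from -0.23 to 0.14 and E2F4 from -0.0097 to 0.14. Of the 20 genes most like the members, 1 was kept with Spearman's correlation and 1 over the 9 induced libraries.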
